A study of Mus musculus with 3 samples.

Results

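The genes described here are the ligands, receptors, Smads and inhibitors of TGF-beta, activin and BMP signalling. They were taken as a list of 54 gene symbols, matched to Ensembl identifiers, and all 54 were found among the 41388 genes of the count files. Mouse embryos of 14.5 days gave the RNA, from their dorsal root ganglia, where the cell bodies of sensory neurons lie. The 3 libraries (A, B and D) form 1 group of C57BL/6 embryos with a Ret-EGFP reporter, sorted for fluorescence, so no treatment, genotype or time was compared. The genotype label, Tg(Ret-EGFP)SJ, reads as a transgene, whereas the series text gives a knock-in at Ret in heterozygotes. Every library was a pool: 100 ganglia of 5 embryos (3 male, 2 female) in A, 100 ganglia of 6 embryos (2 male, 4 female) in B and 80 ganglia of 4 embryos (3 male, 1 female) in D. A and B each came from 2 mothers. The ganglia were from spinal levels T11 to S1 (the component label of D reads TS11 - S1). Ret is active in some sensory neurons and not in others, and cells outside the EGFP gate were not measured. If the knock-in is right, all pools carried 1 Ret allele with the reporter. The spread given below (SD, n = 3) is that between pools of embryos.

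Ligands of this family are secreted dimers that bring together a type II and a type I receptor, both of them serine/threonine kinases. The type II receptor activates the type I receptor, which phosphorylates receptor-activated Smads: Smad2 and Smad3 after TGF-beta and activin, Smad1, Smad5 and Smad9 after BMPs. These join Smad4 and enter the nucleus, and extracellular antagonists, inhibitory Smads, ubiquitin ligases and corepressors limit the signal. In the peripheral nervous system the family is known for its parts in neural crest patterning, the survival and peptide content of sensory neurons, and axon growth.

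Total counts were 20181558 in A, 20355302 in B and 29061086 in D, of which the 54 genes took between 0.0911% and 0.112%. Levels are given as TPM, a gene's count per base of its length as a share of all such values in the library, and a gene was called expressed at a mean of at least 1 TPM. The labelled cell type was borne out by 10 sensory neuron markers (Tubb3, Stmn2, Isl1, Pou4f1 and others), which all passed 1 TPM and summed to between 32182 and 36392 TPM. Markers of other cells were present too. Their summed levels over the libraries ranged from 575 to 957 TPM for 10 glial genes, from 29.7 to 94.3 for 10 mesenchymal genes, from 29.7 to 46.9 for 10 macrophage genes, from 8.49 to 14.2 for 10 endothelial genes and from 103 to 358 for 8 erythroid genes. None of these 58 markers had 0 counts in all 3 libraries, and Tie1 in B and Twist1 in A had none in that library. In sorted bulk RNA, fewer cells of a type and less RNA per cell cannot be told apart.

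The promoters of 4 members are shown because their levels, given further on, and their upstream sequences contrast. Gdf11 and Mstn encode closely related ligands and were the 2 highest of the BMP and GDF group, Acvr2a encodes the highest type II receptor, and Smad6 an inhibitory Smad. Sequences are from RefSeq (GRCm38.p6, a later patch of the assembly used by the files), are written 5′ to 3′ on the gene's strand and end at the base before the start site, except that of Smad6. In the first 3, capitals mark CG dinucleotides. In Smad6 they mark GTCTAGAC, the palindrome to which Smad3 and Smad4 are known to bind, and the sequence runs 4 bases past the start to include it.

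Gdf11 (chr10:128891719-128891968, minus strand): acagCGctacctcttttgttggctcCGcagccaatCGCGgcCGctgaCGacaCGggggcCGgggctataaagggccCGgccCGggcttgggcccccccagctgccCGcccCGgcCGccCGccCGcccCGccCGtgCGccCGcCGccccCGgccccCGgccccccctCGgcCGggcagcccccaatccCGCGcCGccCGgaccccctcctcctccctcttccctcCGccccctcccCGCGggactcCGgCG
Mstn (chr1:53061390-53061639, plus strand): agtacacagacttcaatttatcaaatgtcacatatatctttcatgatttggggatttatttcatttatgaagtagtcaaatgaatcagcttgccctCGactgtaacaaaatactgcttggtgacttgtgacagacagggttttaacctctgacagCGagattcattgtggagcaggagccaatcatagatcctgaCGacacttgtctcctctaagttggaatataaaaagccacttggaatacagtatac
Acvr2a (chr2:48813859-48814108, plus strand): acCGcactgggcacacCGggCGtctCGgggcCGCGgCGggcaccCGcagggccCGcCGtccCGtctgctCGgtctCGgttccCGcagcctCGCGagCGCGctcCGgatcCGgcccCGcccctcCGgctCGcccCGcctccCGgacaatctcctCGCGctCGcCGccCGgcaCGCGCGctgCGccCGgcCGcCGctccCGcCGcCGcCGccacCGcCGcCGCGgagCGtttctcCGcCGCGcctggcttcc
Smad6 (chr9:64022056-64022309, minus strand): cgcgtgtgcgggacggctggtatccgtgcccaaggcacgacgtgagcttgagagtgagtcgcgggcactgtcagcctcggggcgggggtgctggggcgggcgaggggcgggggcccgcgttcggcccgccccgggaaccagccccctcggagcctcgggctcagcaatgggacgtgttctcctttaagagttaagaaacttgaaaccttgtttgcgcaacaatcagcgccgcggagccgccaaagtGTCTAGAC

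Upstream windows of 250 bases were used for 38 members. Members on chromosome 18 (Smad2, Smad4, Smad7 and Bambi) were left out, and the remaining members had no window. The window of Mstn held 3 CG dinucleotides, that of Gdf11 33 and that of Acvr2a 49, against a median of 6 over all 27025 genes in the table (the richest window was used where a gene had several). Those genes were not limited to protein-coding or expressed ones, so they are not a like background for the members. Among expressed members, the 9 receptors had a median of 29 (5 to 49), the 3 Smads 25 (24 to 27) and the 6 inhibitors 31 (16 to 53). Below 1 TPM, the 2 receptors had a median of 18, the 2 Smads 24.5 and the 2 inhibitors 23. The 4 expressed ligands with a window had a median of 6 (3 to 33): Inha 4, Tgfb2 8, Mstn 3 and Gdf11 33. The 7 ligands below 1 TPM ranged from 3 to 35, with a median of 21, so both CG-poor and CG-rich upstream windows occurred among ligands on either side of the threshold.

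Motifs were sought on both strands in windows of 300 bases, 250 before and 50 after the start. TATAAA was present in 6 of 51 member windows, those of Gdf11, Mstn, Tgfb2, Inhba, Bmpr1b and Fstl3, and in 13.6% of all 32851 windows. It began 29 bases before the start in Mstn and 185 bases before it in Gdf11. GTCTAGAC occurred in 1 member window, that of Smad6, beginning 4 bases before the start, and in 0.213% of all windows. GGCGCC, a GC-rich motif bound by BMP-activated Smads, occurred in 14 of 51 member windows and in 11.9% of all. Upstream windows of members also held more CG dinucleotides (median 23, against 6 over all genes in the table). The part of CG content in the motif counts was not tested. These letters describe the sequence only. They do not show that a factor was bound.

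Receptors, Smads and inhibitors were mostly expressed, and ligands mostly were not. Of the 54 members, 33 reached 1 TPM, and 28 did so in every library. Across all genes 33.6% reached this level, and across protein-coding genes 55.5%, so the members' share of 61.1% was close to that of coding genes. By role the counts were 5 of 17 ligands, 10 of 13 receptors, 6 of 8 Smads, 10 of 12 inhibitors and 2 of 4 genes of latency and processing. Members just above the threshold were Smad7 (1.07 TPM), Grem1 (1.09) and Ltbp3 (1.10), and just below it Tgif1 (0.939) and Smad3 (0.889).

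The median member of each role differed accordingly. It was 0.134 ± 0.0324 TPM for ligands, 3.64 ± 0.627 for receptors, 4.63 ± 0.581 for Smads and 5.44 ± 1.38 for inhibitors, against 2.00 ± 0.315 over all protein-coding genes. Within each library the receptor median exceeded that of ligands (log2 ratios 4.55, 5.21 and 4.55). Smads and inhibitors stood above ligands by a mean log2 ratio of 5.13 ± 0.17 and 5.34 ± 0.55. These medians are over all members of a role. That of ligands was the level of Gdf5 in A (3 counts) and B (2 counts) and of Bmp3 in D (5 counts). The above ratios to ligands and their spread thus rest on few counts. Keeping members of at least 1 TPM, a filter on the compared value itself that leaves 5 of 17 ligands and 10 of 13 receptors, put the ligand median at 10.3 TPM and the log2 ratio of receptors to ligands at -0.75. The medians of Smads and inhibitors lay closer together than the libraries' spread (log2 -0.21 ± 0.42).

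**Figure D1:**
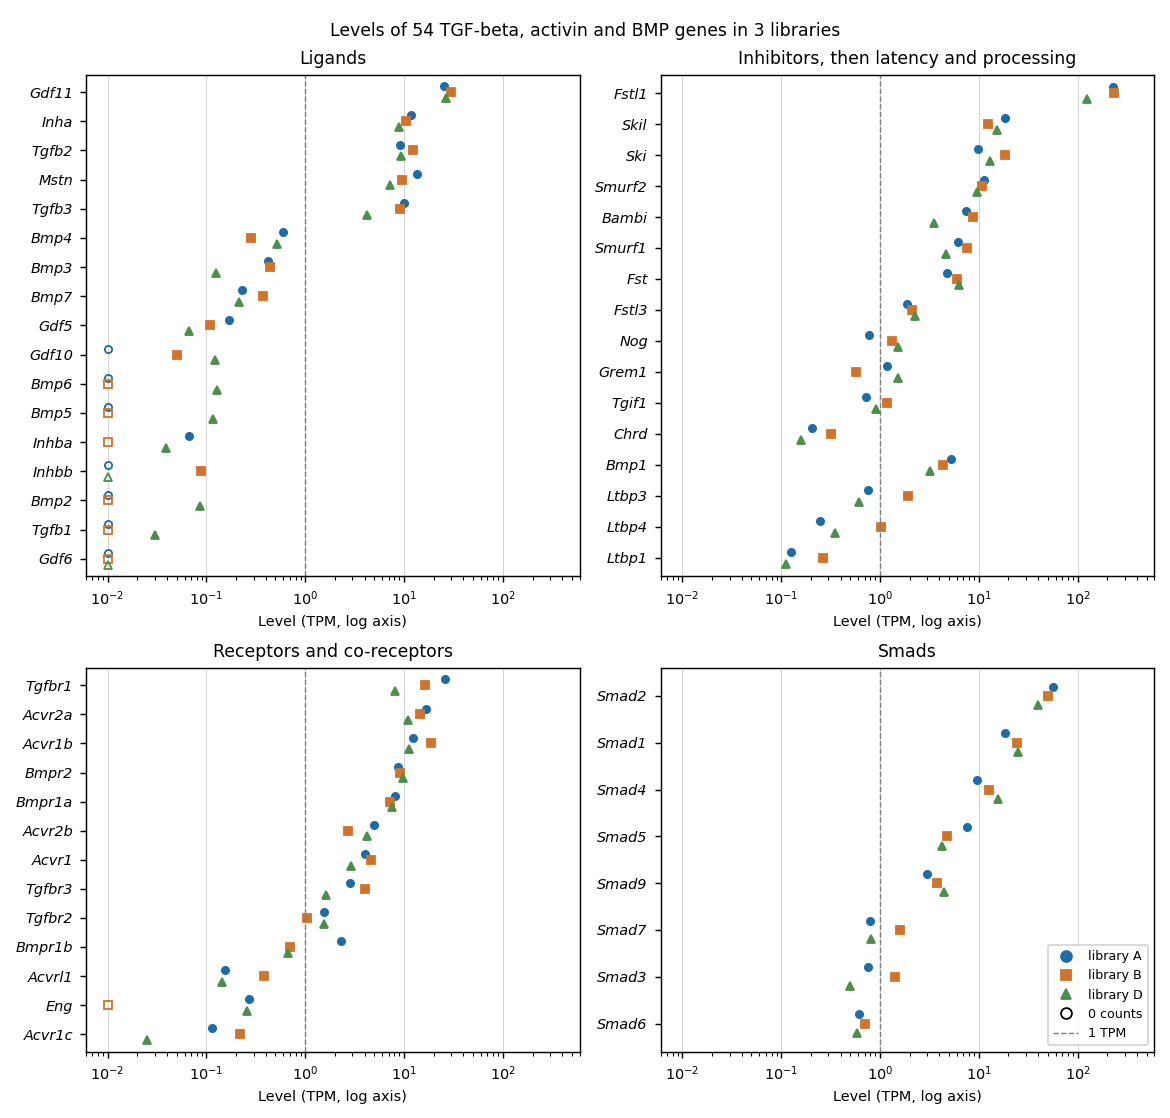
TPM (log axis) of each of the 54 genes in libraries A, B and D, in panels by role and ordered by mean, with open symbols at the left edge for 0 counts and a dashed line at 1 TPM. 5 ligands stand clear of the other 12, which all lie below 1 TPM, whereas most receptors, Smads and inhibitors lie to the right of the line.

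The highest ligand was Gdf11 (ENSMUSG00000025352, chromosome 10, 128882295 to 128891718, GRCm38.p2), which encodes a factor of the activin-like branch known for patterning the axial skeleton and limiting neurogenesis. Its counts were 783, 972 and 1414 in A, B and D, or 25.4, 30.0 and 26.9 TPM (mean 27.5 ± 2.36). The 3 libraries lay within 1.18-fold of each other, the narrowest range of the 5 expressed ligands among the 54 genes. Mstn, which encodes myostatin, the known restraint on muscle mass, had 275, 206 and 250 counts (13.4, 9.56 and 7.14 TPM). Gdf11 exceeded it in every library, by log2 ratios of 0.92, 1.65 and 1.91 in A, B and D.

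The expressed TGF-beta genes were Tgfb2 and Tgfb3. Tgfb2 stood at 9.02, 12.3 and 9.42 TPM from 323, 462 and 576 counts, and Tgfb3 at 10.1, 9.09 and 4.27 TPM from 258, 245 and 187 counts. Their ratio lay within the spread between libraries, with Tgfb3 the higher in A and Tgfb2 in B and D (log2 0.47 ± 0.65, exact sign-flip permutation p = 0.5). Tgfb1, the isoform typical of blood and immune cells, had no counts in A and B and 1 count in D.

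Of the activin and inhibin subunits, only the inhibin alpha gene Inha passed 1 TPM. It was measured at 11.8, 10.4 and 8.85 TPM (132, 122 and 169 counts). Inhba and Inhbb encode the beta subunits of activin, which inhibin also needs. Inhba had 1 count each in A and D and none in B, and Inhbb had 3 counts in B and none in A and D. The libraries therefore held the alpha subunit's transcript and nearly none of either beta subunit's.

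None of the classical BMP ligand genes reached 1 TPM. Bmp4, the highest, had 10, 5 and 15 counts (0.593, 0.282 and 0.521 TPM), and Bmp3 and Bmp7 had 5 to 12 counts per library. Bmp2, Bmp5 and Bmp6 had no counts in A and B and 4, 6 and 4 counts in D. Gdf5 had 2 or 3 counts per library and Gdf10 at most 4. Exons of a gene on the opposite strand covered 46.7% of Bmp5 and 40.3% of Gdf5, but those genes had at most 1 count in a library. Gdf6 was the sole member with 0 counts in every library, which allows up to 0.112, 0.107 and 0.0656 TPM in A, B and D. Intervals and limits from counts cover counting error only, since the protocol names no molecular identifiers.

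Receptors of both branches were present. Among the 7 type I receptors, Tgfbr1 (chromosome 4, 47353222 to 47414931), which serves TGF-beta and some GDFs, had 1292, 845 and 681 counts, or 26.1, 16.2 and 8.05 TPM. A was the highest and D the lowest, a 3.24-fold range. Acvr1b, the main activin type I receptor, was measured at 12.2, 18.6 and 11.3 TPM (408, 652 and 644 counts). The order of these leading receptors was not settled, since Tgfbr1 was the higher in A alone (log2 0.14 ± 0.84).

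The BMP type I receptor gene Bmpr1a followed with 394, 364 and 619 counts, at 8.18, 7.20 and 7.53 TPM, 3 values within 1.14-fold of each other. Acvr1, which serves BMPs, stood at 3.99, 4.65 and 2.91 TPM. Bmpr1b had 105, 33 and 52 counts, or 2.32, 0.695 and 0.674 TPM, and stood highest in A. Bmpr1a exceeded it in 3 of 3 libraries, 7.41-fold on average (log2 2.89 ± 0.93, exact p = 0.25, the smallest that 3 libraries allow). Over the 11 pairs compared, the adjusted value for every pair with 1 direction in all libraries was 0.306, so no pair could pass 0.05.

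Acvrl1, the type I receptor known from endothelium, averaged 0.227 TPM (5, 13 and 8 counts). The endothelial co-receptor gene Eng had 8, 0 and 13 counts, with none in B. The 10 endothelial markers, of which 2 passed 1 TPM, summed to 14.2, 11.9 and 8.49 TPM, and their part in these levels was not tested. Acvr1c, a nodal and activin receptor gene, averaged 0.118 TPM. These 3 were the receptors below 1 TPM. Summed over type I receptors, the activin and TGF-beta type (Acvr1b, Tgfbr1 and Acvr1c) reached 38.4, 35.0 and 19.4 TPM and the BMP type (Bmpr1a, Bmpr1b and Acvr1) 14.5, 12.5 and 11.1 TPM. Their log2 ratios were 1.41, 1.48 and 0.80.

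All 4 type II receptor genes were expressed. Acvr2a (ENSMUSG00000052155, chromosome 2, 48814109 to 48903269), which binds activins, GDF11 and BMPs, led with 714, 664 and 810 counts, or 16.56, 14.66 and 11.01 TPM. Of its exon length, 7.84% is shared with Orc4 on the opposite strand, which had 1305 to 1953 counts, and whether strand was used in counting is not given in the sources used here. Bmpr2, the type II receptor dedicated to BMPs and GDFs, was steady at 8.61, 9.04 and 9.75 TPM (1174, 1294 and 2269 counts). Acvr2a lay above it in every library, by a mean log2 ratio of 0.61 ± 0.39.

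Acvr2b had 66, 38 and 95 counts (4.97, 2.72 and 4.19 TPM) and Tgfbr2, the dedicated TGF-beta type II receptor gene, 56, 40 and 95 counts (1.54, 1.05 and 1.53 TPM). Tgfbr2 was thus the lowest of the 4 type II receptors among the members, while its partner Tgfbr1 was the highest type I receptor on average. The log2 ratios of Tgfbr1 to Tgfbr2 were 4.08, 3.95 and 2.39 (exact p = 0.25). Bmpr2 exceeded Tgfbr2 6.73-fold and Acvr2a exceeded Acvr2b 3.61-fold, each in 3 of 3 libraries (exact p = 0.25). With the same counts divided by the exon lengths of a later annotation, GENCODE M21, Acvr2b would average 2.06 TPM and Tgfbr2 0.937. Reads in exons that only the later annotation holds are not in these counts, so such levels can be too low. The log2 ratios would then be 4.25 for Tgfbr1 to Tgfbr2, 3.53 for Bmpr2 to Tgfbr2 and 3.02 for Acvr2a to Acvr2b. Tgfbr3, or betaglycan, which presents TGF-beta2 and inhibin to their receptors, was measured at 2.82, 4.01 and 1.62 TPM.

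**Figure D2:**
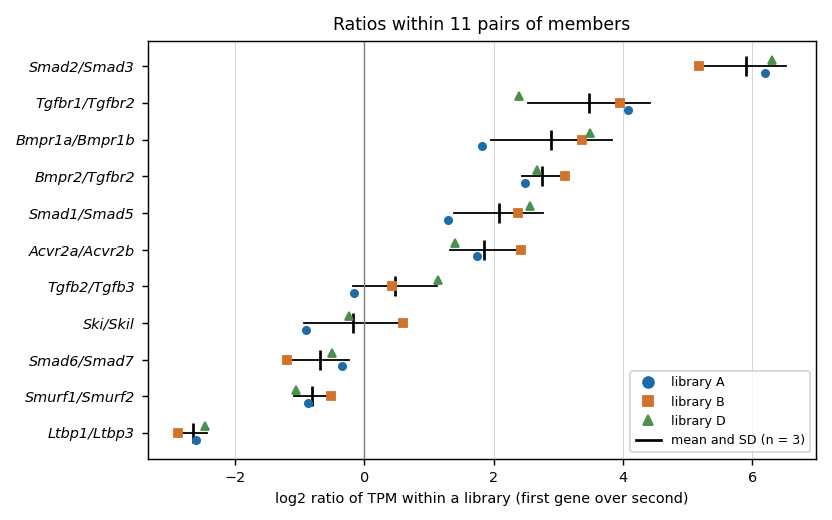
log2 ratio of TPM within each library for 11 pairs of members, as points per library with the mean and SD (n = 3) in black. For Tgfb2/Tgfb3 and Ski/Skil the libraries fall on both sides of 0, and for the other 9 pairs all 3 fall on the same side.

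The Smads of both branches were expressed at unequal levels. Smad2 had 1505, 1432 and 1824 counts, or 55.9, 50.7 and 39.7 TPM, and was the highest Smad. Smad3, which carries signals of the same ligands, had 32, 62 and 36 counts (0.7615, 1.405 and 0.5020 TPM). Smad2 exceeded Smad3 59.4-fold (log2 5.89 ± 0.63, 3 of 3 libraries, exact p = 0.25), the widest ratio of the 11 pairs. The log2 ratio was 4.59 with M21 lengths and 5.25 as CPM.

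Among BMP Smads, Smad1 (chromosome 8, 79338395 to 79399518), known to be needed for axon growth of these neurons, had 819, 1137 and 1890 counts, or 18.6, 24.6 and 25.1 TPM. Smad5 stood at 7.57, 4.72 and 4.26 TPM (426, 279 and 409 counts) and Smad9 at 3.02, 3.77 and 4.43 TPM. Smad1 exceeded Smad5 4.22-fold (log2 2.08 ± 0.68, 3 of 3 libraries, exact p = 0.25), while the ratio of Smad5 to Smad9 lay within its spread (log2 0.53 ± 0.71). The shared partner Smad4 was measured at 9.66, 12.7 and 15.7 TPM (272, 375 and 756 counts). It was lowest in A and highest in D, as were Smad1 and Smad9, under TPM, CPM and both count scalings.

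Which branch led among the Smads depended on gene length. Smad2 and Smad3 summed to 56.7, 52.1 and 40.2 TPM, and Smad1, Smad5 and Smad9 to 29.2, 33.0 and 33.8 TPM (log2 ratio 0.62 ± 0.36). The deposited length of Smad2 is 3549 bases, whereas its exons in GENCODE M21 cover 8781. With M21 lengths for all genes the mean log2 ratio turned to -0.57, Smad2 fell to 23.0 TPM, and its log2 ratio to Smad1 went from 1.10 to -0.10. As CPM, with no length correction, the ratio of the sums was -0.13. The counts were made over the deposited gene models, so the longer lengths need not be the better ones.

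The inhibitory Smads were low. Smad7, which acts on all branches, had 27, 58 and 48 counts (0.788, 1.61 and 0.820 TPM), and Smad6, which acts mainly on BMP receptors, had 15, 18 and 24 counts (0.617, 0.705 and 0.579 TPM). Smad7 was the higher in 3 of 3 libraries (log2 Smad6/Smad7 -0.68 ± 0.45, exact p = 0.25). The Smad6 promoter with the Smad-binding palindrome, printed above, thus belongs to a gene below 1 TPM in every library.

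Extracellular inhibitors ranged from the highest member to one below 1 TPM. Fstl1 (ENSMUSG00000022816, chromosome 16, 37776873 to 37836514) was the highest of all 54 members, with 8495, 9250 and 8002 counts, or 228, 236 and 126 TPM. It stood above 95.9% of protein-coding genes. It encodes a follistatin-like glycoprotein that binds BMP4 and is also known, as a protein released by sensory axons, to activate the sodium pump. D lay below A and B, by 1.88-fold from the highest library to the lowest.

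Fst, which encodes the activin antagonist follistatin, followed at 4.74, 6.02 and 6.38 TPM (84, 112 and 193 counts, and a mean of 3.39 TPM with M21 lengths). Fstl3, another activin and myostatin antagonist, averaged 2.09 ± 0.194 TPM, and 47.3% of its exon length is shared with the opposite-strand gene Prss57, which had 2 to 4 counts. The BMP antagonist genes Nog (10, 18 and 33 counts) and Grem1 (37, 19 and 82 counts) averaged 1.21 and 1.09 TPM, each below 1 TPM in a library. Chrd, for chordin, averaged 0.228 TPM.

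Most inhibitors at the membrane and inside the cell were expressed. Skil, which encodes the corepressor SnoN, had 1349, 952 and 1917 counts (18.4, 12.3 and 15.3 TPM), and its paralog Ski 416, 823 and 930 counts (9.86, 18.6 and 12.9 TPM). Ski was the higher in B alone, and the pair did not differ beyond its spread (log2 Ski/Skil -0.18 ± 0.75, exact p = 0.75). The ubiquitin ligase gene Smurf2 was steady at 11.3, 10.9 and 9.61 TPM and exceeded Smurf1 (6.20, 7.59 and 4.61 TPM) 1.76-fold in 3 of 3 libraries (log2 -0.81 ± 0.27, exact p = 0.25). Bambi, a decoy receptor without a kinase domain, was measured at 7.35, 8.65 and 3.50 TPM, and the corepressor gene Tgif1 averaged 0.939 TPM.

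Latency and processing genes stood low. Bmp1, which despite its name encodes a metalloprotease that cleaves procollagen and chordin, led with 149, 130 and 155 counts (5.23, 4.34 and 3.19 TPM). The latent TGF-beta binding protein genes Ltbp3 (0.762, 1.94 and 0.610 TPM), Ltbp4 (0.245, 1.03 and 0.347 TPM) and Ltbp1 (10, 22 and 15 counts) all had their highest level in B. Ltbp3 exceeded Ltbp1 6.26-fold (log2 Ltbp1/Ltbp3 -2.65 ± 0.21, exact p = 0.25). Dividing the same counts by M21 lengths would put Bmp1 at 2.10 TPM and Ltbp3, at 0.736, below the threshold. The log2 ratio of Ltbp1 to Ltbp3 would then be -1.87. The mesenchymal markers, at 38.0, 94.3 and 29.7 TPM in sum, were highest in B too. Their part in the levels of the Ltbp genes was not tested.

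Differences between libraries were next compared with those of other genes of like level. A goodness-of-fit test in edgeR over all genes called 24 of 13530, or 0.177%, as varying between the libraries at a Benjamini-Hochberg adjusted p under 0.05. Of the 38 members that passed the count filter, 0 were called. With no adjustment for multiple tests, 2 of 38 passed 0.05 in edgeR, against 6.11% of all genes, and both lost the call on adjustment. They were Ltbp4 (edgeR adjusted p = 0.777) and Bmpr1b (edgeR adjusted p = 0.794). DESeq2 marked 0 of 53 members as dispersion outliers, against 0.0727% of all genes. With 3 libraries these tests do not show that the members' levels were equal.

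Among members of at least 1 TPM, the highest TPM of 14 of 33 fell in A, of 11 in B and of 8 in D, and all expressed genes gave 42.6%, 34.9% and 22.5%. With TMM-scaled CPM in place of TPM the counts were 9, 10 and 14, against 33.7%, 26.9% and 39.5% of all expressed genes, so the library with most of the highest values moved with the scaling for all genes alike. Under 4 scalings (TPM, CPM, TMM and DESeq2 size factors), 22 of the 33 members kept both their highest and their lowest library, and 11 changed at least 1 of them. Tgfbr1, Mstn, Tgfb3, Bmp1, Acvr2a and Smad2 were the 6 that stayed highest in A and lowest in D. Nog, Fst, Fstl3, Bmpr2, Smad1, Smad4 and Smad9 were the 7 that stayed highest in D and lowest in A. These genes were picked after their values were seen, and none of them was called as varying between libraries. The matching counts under 4 scalings were not made over all expressed genes. Those of the members therefore cannot be told apart from what other genes show.

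**Figure D3:**
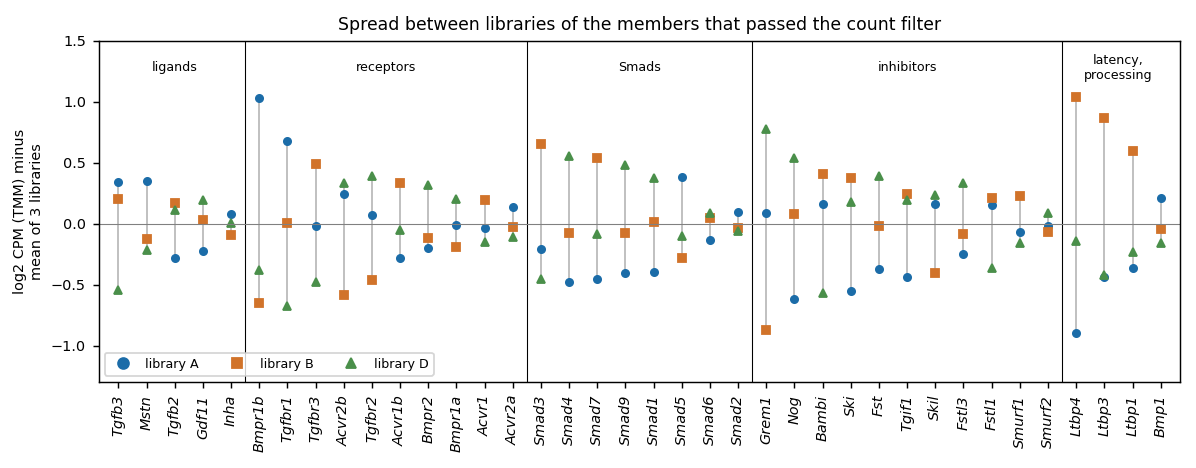
Deviation of each library's log2 CPM (TMM) from the mean of the 3 libraries for the 38 members that passed the count filter, by role and ordered within a role by range. Ltbp4 and Bmpr1b span wide ranges, and the points of Smurf2 nearly coincide.

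Other genes of the pathway were taken from a list of 81, of which 80 were found (Gdf1 was not analysed here). Of these 80, 41 reached 1 TPM, against 55.5% of protein-coding genes, and 0 of 44 tested were called as varying between libraries by edgeR, against 0.177% of all genes tested. Without adjustment 4 of the 44 passed 0.05, against 6.11% of all genes. Ligands were again mostly below the threshold, with 1 of 15 at 1 TPM: Gdf9, best known as an oocyte factor, averaged 3.63 ± 0.292 TPM. Extracellular regulators reached 1 TPM in 12 of 26 cases. Sostdc1, which encodes a secreted BMP and Wnt antagonist, was the highest, at 39.8, 122 and 74.6 TPM. Bmper, a BMP-binding endothelial regulator, stood at 57.5, 45.3 and 26.2 TPM and Dand5, an antagonist of nodal, at 22.3, 22.7 and 17.8 TPM. Sostdc1 was thus highest in B and Bmper lowest in D, and Dand5 varied by 1.27-fold.

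Of 8 other receptors and co-receptors, 4 passed 1 TPM. Rgmb, a BMP co-receptor of the repulsive guidance family first described in dorsal root ganglia, averaged 21.8 ± 4.70 TPM, its partner Neo1 18.3 ± 2.28 TPM and Tgfbrap1 3.41 ± 1.00 TPM. Of 20 other intracellular members 18 passed. Fkbp1a, whose product binds type I receptors among other proteins, was highest at 605, 880 and 208 TPM, followed by the deubiquitinase gene Usp15 (231, 129 and 76.9 TPM) and the kinase partner Tab1 (54.5, 31.8 and 26.4 TPM). Fkbp1a and Usp15 were lowest in D. The levels of Rgmb and Usp15 rest on length, since their M21 exons are 2.91 and 5.14 times as long as the deposited ones.

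Known target genes divided sharply. The Id genes, classical BMP-Smad targets that encode inhibitors of bHLH factors, were all expressed. Id2 reached 418, 454 and 811 TPM (a mean of 340 with M21 lengths), Id1 177, 213 and 172 TPM and Id3 141, 200 and 204 TPM. Id4 averaged 65.8 ± 13.5 TPM (a mean of 33.0 with M21 lengths). Id1 and Id2 stood above 95.7% and 98.7% of protein-coding genes. Hes1, which is also a Notch target, stood at 12.2, 18.3 and 42.7 TPM in A, B and D, and Tgfbi averaged 22.7 ± 6.57 TPM. Ccn2, a target of TGF-beta in many cells, averaged 0.400 TPM, Msx1 and Atoh8 had at most 5 counts in a library, and Msx2 had none. Id genes are also expressed by glia, and the 10 glial markers summed to 575, 905 and 957 TPM. Their part in the Id levels was not tested.

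**Figure D4:**
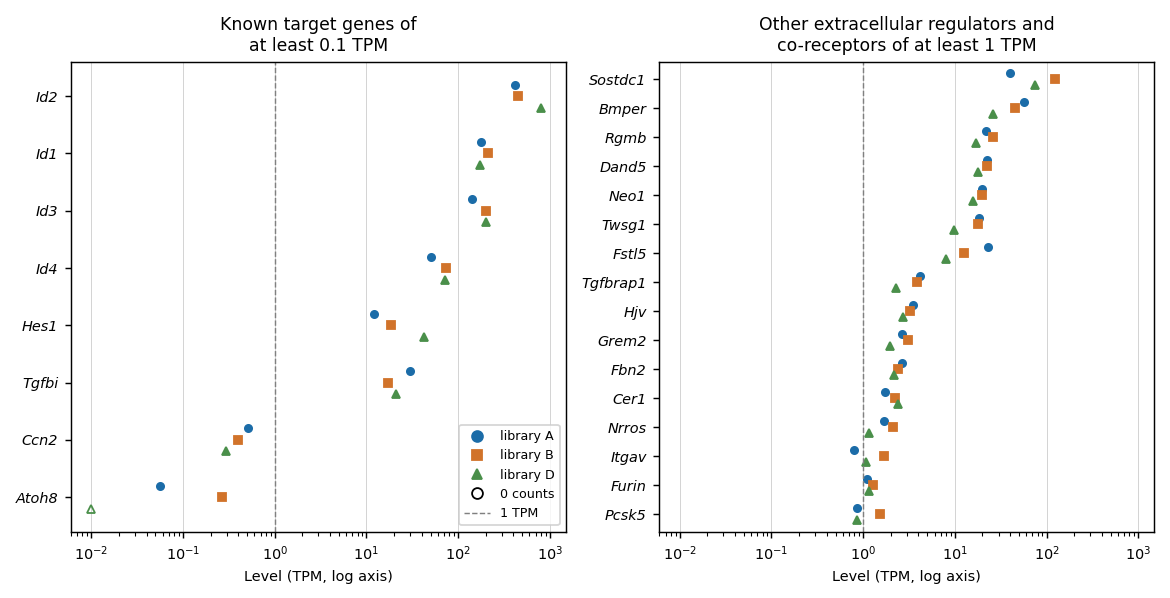
TPM (log axis) per library of 8 known target genes with a mean of at least 0.1 TPM and of 16 other extracellular regulators and co-receptors of at least 1 TPM, with open symbols at the left edge for 0 counts and a dashed line at 1 TPM. The 4 Id genes, Hes1 and Tgfbi lie above 10 TPM in every library and Ccn2 and Atoh8 below 1 TPM.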

How the data were processed

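Per the labels' protocols, libraries were made from 10 ng of RNA of sorted cells with a SMARTer low-input kit and 12 PCR cycles. The deposited counts are whole numbers for each Ensembl gene, which the authors made with Subread and featureCounts 1.4.5 on GRCm38.p2, per the submitters' processing notes. The deposited CPM equalled the count scaled to the library total, and the deposited RPKM that CPM per kilobase of gene length. For strand use and multiply matching reads, the setting is not given in the sources used here.

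Of 41388 genes, 40254 matched a GENCODE M21 symbol. TPM was computed from the counts and deposited lengths over all genes. The members, roles, pairs, markers and the list of other pathway genes were chosen with earlier results of these data known. All members were named, with values per library for the 2 highest of a role and members of the pairs. A pair needed 10 counts of both genes in every library (11 of 16 pairs), and its log2 ratios were tested by a two-sided exact sign-flip permutation over libraries. For variation between libraries, edgeR 4.0.16 (R 4.3.3) was used with TMM, filterByExpr and an intercept-only fit with trended dispersion. Goodness of fit was tested with Benjamini-Hochberg adjustment. On simulated data this test missed most 2-fold and 4-fold changes made in a single library, so a lack of calls leaves such changes possible. The alternatives were other thresholds, scalings, filters, dispersions and lengths, DESeq2 1.42.0, and leaving out each library. Exon overlaps were found with bedtools 2.31.1 from the deposited coordinates. No protein sequences were used here, and some listed genes are not reported here.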

Additional observations from a re-analysis of the deposited data

How the results depend on the processing

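With GENCODE M21 lengths, an alternative chosen after seeing the data, the levels of 12 of the 54 members moved by more than the spread between libraries. The other 258 of 270 recomputed levels of single genes did not. Most of those 258 left out 1 of the 3 libraries, which cannot move a mean by more than that spread, so they could not have counted as moved. Of the 12, Inha, Gdf11, Bmpr1a, Bmpr2, Fstl3, Smurf2 and Smad6 have the same length in both annotations. Their TPM rose (Gdf11 from 27.5 to 32.0) because TPM is a share of the library and the lengths of other genes changed. Of 9 recomputed counts of members called as varying between libraries, all 9 were 0. Over all genes edgeR's calls went from 24 to 57 with a length trend removed, 35 without the count filter, 7 without A, 2 without B and 27 without D. These settings called between 0.0141% and 0.421% of all genes, so 0 was likely among so few members and says little about them. Keeping only members of at least 1 TPM, a filter on the compared value itself, gave medians of 10.3 TPM for ligands, 6.12 for receptors, 9.14 for Smads and 2.68 for latency and processing. It turned the log2 ratios to ligands negative (receptors -0.75, Smads -0.17, inhibitors -0.61), gave 0.14 for inhibitors over receptors and turned Smads over inhibitors to 0.44. With CPM in place of TPM, the log2 ratios were 5.41 for receptors over ligands, 6.13 for Smads over ligands, 0.73 for Smads over receptors and 0.27 for Smads over inhibitors. With M21 lengths the Smad median was 5.39 TPM, and the log2 ratios of Smads were 5.30 over ligands, 0.74 over receptors and 0.11 over inhibitors. That median rests on Smad5 and Smad9, whose own lengths are the same in both annotations. The summed Smads of the TGF-beta and activin type over those of the BMP type turned to -0.13 with CPM and -0.57 with M21 lengths, where Smad2 was divided by a longer length. Leaving out each library in turn gave log2 ratios from -0.36 to 0.027 for Smads over inhibitors, positive without B, and from -0.57 to 0.17 for Ski over Skil, positive without A. The latency and processing genes at the threshold numbered 1 at 2 TPM and 1 with M21 lengths, and from 1 (without B) to 2 when a library was left out. Apart from that filter and the use of M21 lengths, the cause of these changes was not tested. No paired analysis was possible because the 3 libraries form 1 group. Depth limits the rarest members: 3 counts of Gdf6 correspond to between 0.0656 and 0.112 TPM.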
